A study of Rattus norvegicus with 138 samples.

Results

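The genes described here are 9 transcripts of the adipocyte programme, Pparg, Cebpa, Adipoq, Fabp4, Plin1, Lep, Lpl, Cidec and Cfd, taken by symbol from a table of 16181 genes. All 9 were present in the table. They were measured by whole-tissue RNA sequencing of the rat tibialis anterior (TA), a fast hindlimb muscle, after volumetric muscle loss (VML), in which a piece of muscle too large to regenerate is removed with a punch from the left leg. Values are TPM, a transcript level scaled by transcript length and to a common total in each library.

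All animals were inbred male Lewis rats. Control muscles (labelled sham, day 0, not running and without repair, 4 muscles of 2 rats) came from animals of a separate numbered set, so that control and rat set cannot be told apart, and the tests treat both muscles of a rat as separate samples. Operated rats were studied at 3, 7, 14 or 28 days post injury (DPI). The injured TA was left without repair (non-repaired) or filled with an autologous minced muscle graft, small pieces of the tissue that had been cut out. Each of these arms had rats that ran and rats that did not. The contralateral TA was the uninjured muscle of the other leg in rats of the same arms. Libraries with fewer than 7000 symbols above 1 TPM were left out by the rule for these genes, which removed 13 libraries, and 9 further libraries had labels that put them in no group. That left 114 muscles of 78 rats in 31 groups, with 76 injured, 34 contralateral and 4 control muscles. The muscles of non-repaired, non-running rats numbered 3, 8, 4 and 4 injured and 2, 4, 2 and 2 contralateral at 3, 7, 14 and 28 DPI.

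Adipocytes store triglyceride in lipid droplets and secrete adipokines. Pparg encodes the nuclear receptor that drives adipocyte differentiation, and Cebpa encodes a transcription factor that acts with it. Plin1 and Cidec encode proteins of the adipocyte lipid droplet. Fabp4 encodes a fatty acid carrier and Lpl the lipase that releases fatty acids from circulating lipoproteins. Adipoq, Lep and Cfd encode secreted proteins: adiponectin, leptin and complement factor D (adipsin). In damaged skeletal muscle, adipocytes can arise from fibroadipogenic progenitors. Several of the 9 genes are not particular to fat: macrophages use Pparg, Fabp4, Lpl and Cebpa, capillary endothelium uses Fabp4, and muscle fibres make Lpl.

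The 250 bases before the start of Adipoq, Plin1 and Cidec are shown because the levels of these 3 genes moved together between muscles. They are RefSeq sequence of build GRCr8, on the minus strand and written 5′ to 3′ along the gene, at chr11:91240170-91240419, chr1:143086149-143086398 and chr4:148137116-148137365. Capitals mark matches to TTGCNNAA, a C/EBP-type motif, or CCAAT on either strand.
Adipoq: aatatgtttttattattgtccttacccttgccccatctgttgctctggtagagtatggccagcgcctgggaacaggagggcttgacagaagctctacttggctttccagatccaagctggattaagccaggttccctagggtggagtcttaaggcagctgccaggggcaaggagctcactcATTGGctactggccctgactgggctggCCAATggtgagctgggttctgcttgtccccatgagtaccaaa
Plin1: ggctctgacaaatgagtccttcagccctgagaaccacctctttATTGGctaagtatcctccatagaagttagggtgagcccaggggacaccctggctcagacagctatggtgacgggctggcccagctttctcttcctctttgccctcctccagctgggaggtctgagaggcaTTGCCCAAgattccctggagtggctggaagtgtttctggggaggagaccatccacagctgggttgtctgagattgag
Cidec: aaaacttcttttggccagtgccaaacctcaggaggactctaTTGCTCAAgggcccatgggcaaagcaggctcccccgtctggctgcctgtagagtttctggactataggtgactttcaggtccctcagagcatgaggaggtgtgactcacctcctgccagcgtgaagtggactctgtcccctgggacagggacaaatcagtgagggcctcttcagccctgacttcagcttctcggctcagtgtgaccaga

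Adipoq held CCAAT-type matches at bases 69 to 65 and 42 to 38 before the start, and Plin1 held 1 at bases 207 to 203. TTGCNNAA was matched in Plin1, at bases 77 to 70, and in Cidec, at bases 209 to 202. Of all 33469 promoters of this length in the table, 9.22% held TTGCNNAA and 34.0% held CCAAT. Promoters of 7 of the 9 genes were listed, with 2 for Pparg, and Fabp4 and Lpl had none listed. Of these 8 promoters, 4 held TTGCNNAA, those of Plin1, Lep, Cidec and the downstream promoter of Pparg. Cebpa alone held TATAAA, which 12.9% of all promoters held.

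In control muscle the levels of the 9 genes spanned 3 orders of size. Fabp4 was the highest at 235 ± 102.4 TPM (SD, n = 4), followed by Lpl at 64.5 ± 21.997 and Cfd at 5.18 ± 2.27 TPM. Adipoq at 1.46 ± 0.671, Pparg at 1.39 ± 0.389 and Cebpa at 1.01 ± 0.334 TPM had ranges that overlapped. Plin1 at 0.285 ± 0.156, Cidec at 0.205 ± 0.0896 and Lep at 0.10 ± 0.0432 TPM stood below 1 TPM. Control muscle therefore held transcripts of all 9 genes, with those of the lipid droplet and leptin at the bottom of the range. In bulk tissue, fewer cells of a type and less RNA per cell cannot be told apart.

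After injury the 9 genes followed separate courses. Cebpa and Cfd were highest at 3 DPI and then came down. Adipoq, Plin1 and Cidec in injured muscle overlapped control muscle to 14 DPI and stood above it at 28 DPI. Groups were compared with limma on log2(TPM + 1), in a single model of all 114 muscles over 11328 genes with a group mean above 1 TPM, and a gene was called at a Benjamini-Hochberg adjusted p under 0.05 with a log2 difference beyond 1. Of the 9 genes, 8 passed the filter. Lep did not and its values are given without a test.

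**Figure D1:**
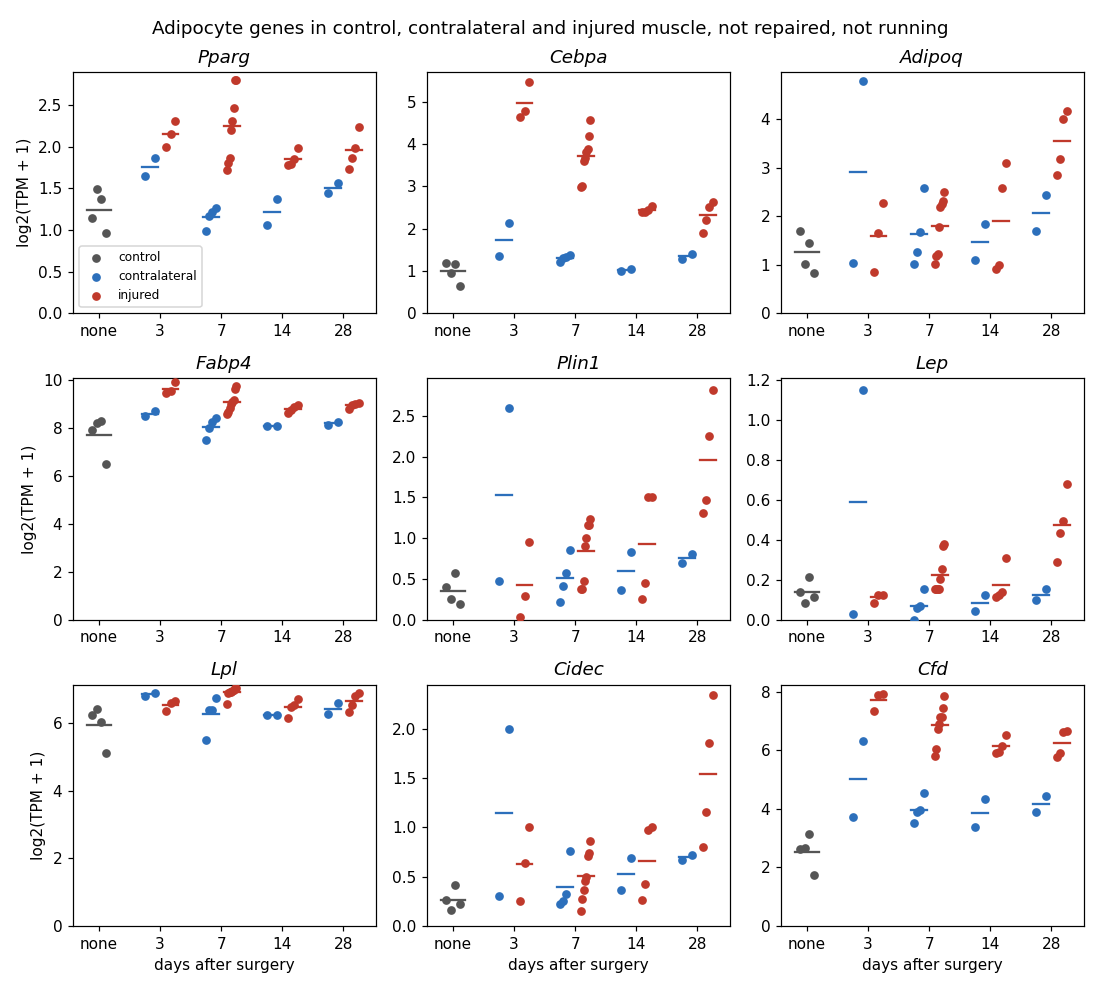
Level of each gene as log2(TPM + 1) against days after surgery in non-repaired, non-running rats. Points are muscles (grey control, blue contralateral, red injured) and bars are group means. Cebpa and Cfd were highest in injured muscle at 3 DPI, while Adipoq, Plin1, Cidec and Lep were highest in injured muscle at 28 DPI, apart from the contralateral muscle of rat 010 at 3 DPI.

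Cebpa was the member with the largest difference between injured and contralateral muscle at 3 DPI. In non-repaired injured muscle it stood at 43.1, 24.1 and 26.3 TPM at 3 DPI, against 3.35 and 1.55 TPM in contralateral muscle and 0.57 to 1.29 TPM in controls. No injured muscle overlapped with either group. Injured muscle exceeded contralateral muscle by 3.22 ± 0.30 on the log2 scale (SE, adjusted p = 2.46e-16) and control muscle by 3.97 ± 0.25 (adjusted p = 5.27e-26). At 7 DPI the 8 injured muscles ranged from 6.93 to 22.9 TPM around a mean of 12.96 ± 5.25 and exceeded contralateral muscle by 2.40 ± 0.20 (adjusted p = 3.05e-19). At 14 DPI they held 4.26, 4.26, 4.84 and 4.39 TPM, and the difference was 1.41 ± 0.29 (adjusted p = 1.87e-05). At 28 DPI they held 2.75 to 5.21 TPM, all above the 2 contralateral muscles at 1.43 and 1.65 TPM, and the log2 difference of 0.97 did not reach the fold threshold. Within injured muscle, Cebpa fell by 1.24 from 3 to 7 DPI (adjusted p = 3.93e-06) and by 1.27 from 7 to 14 DPI (adjusted p = 1.71e-07). Without the injured muscle of rat 010 the first of these values was -0.99, short of the fold threshold. From 14 to 28 DPI the difference was -0.13, within the spread.

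Cfd was also at its highest level in injured muscle at 3 DPI. Injured non-repaired muscle held 246, 237 and 161 TPM at 3 DPI, 55.2 to 231 TPM at 7 DPI, 60.0 to 91.4 TPM at 14 DPI and 53.5 to 100.7 TPM at 28 DPI. Control muscle held 2.31 to 7.86 TPM. Injured muscle was above contralateral muscle on every day, by 2.70 ± 0.52, 2.91 ± 0.35, 2.28 ± 0.50 and 2.08 ± 0.50 on the log2 scale at 3, 7, 14 and 28 DPI (adjusted p = 4.39e-06, 3.17e-12, 6.25e-05 and 0.00041). Against control muscle the differences were 5.18, 4.34, 3.60 and 3.70. From 3 to 28 DPI, Cfd in injured muscle fell by 1.48 (adjusted p = 0.002), and the steps between neighbouring days were not called.

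Pparg differed by less. It stood at 2.98 to 3.95 TPM in injured muscle at 3 DPI, 2.29 to 5.99 at 7 DPI, 2.44 to 2.97 at 14 DPI and 2.31 to 3.72 at 28 DPI, against 0.95 to 1.82 TPM in controls. On each day every injured muscle was above every contralateral muscle. The difference was called at 7 DPI, at 1.09 ± 0.15 (adjusted p = 3.48e-10). At 3, 14 and 28 DPI it was 0.40, 0.64 and 0.45, under the fold threshold. The 8 injured muscles of 7 DPI came from more than 1 range of rat numbers, and within the range of the contralateral muscles the difference was 0.77, under the fold threshold, so the call at 7 DPI was lost.

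Like Cebpa and Cfd, markers of macrophages were highest in injured muscle at 3 DPI, and those of neutrophils were higher at 3 DPI. Pparg did not follow this course, and its difference was largest at 7 DPI. All 12 macrophage markers were called higher at 3, 7 and 14 DPI and 10 of 12 at 28 DPI, with medians of 4.58, 3.20, 1.98 and 1.59 on the log2 scale, the highest being Gpnmb and the lowest Cd14, Cd163, Itgam and Cd163. Of all tested genes 38.2, 47.4, 21.1 and 13.3% were called in either direction on these days. The summed level of the macrophage markers summed level was 16.8 to 40.2 TPM in control muscle, 77.5 to 234 TPM in contralateral muscle at 3 DPI and 5869 to 8005 TPM in injured muscle at 3 DPI. It then stood at 970 to 3916, 481 to 597 and 281 to 1274 TPM in injured muscle at 7, 14 and 28 DPI. None of the 12 markers was at 0 throughout any of these groups. Of the 7 tested neutrophil markers, 6 were higher at 3 DPI and 2 at 7 DPI, the latter a smaller share than that of all tested genes, and the sum of the 10 listed was 1.28 to 5.79 TPM in controls, where 2 of the 10 were at 0 in every muscle, and 82.02 to 279 TPM in injured muscle at 3 DPI. The part of these cells in the Cebpa, Cfd and Pparg values was not tested.

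**Figure D2:**
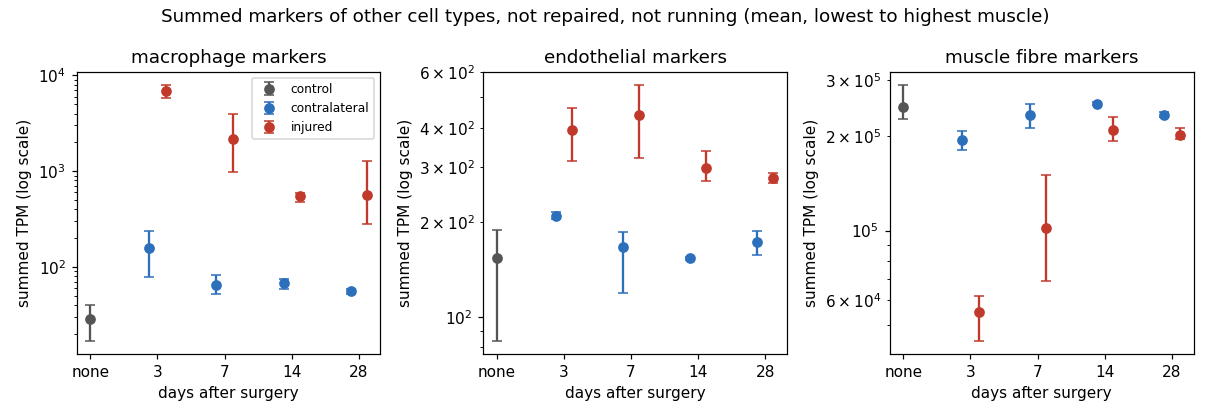
Summed TPM (log scale) of 12 macrophage, 12 endothelial and 12 muscle fibre markers against days after surgery in non-repaired, non-running rats. Points are means and bars run from the lowest to the highest muscle. Macrophage markers peaked in injured muscle at 3 DPI, when the muscle fibre sum was lowest, at 44564 to 62008 TPM.

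Fabp4 and Lpl, the abundant members, differed by smaller factors. Fabp4 was 968, 719 and 746 TPM in injured muscle at 3 DPI against 422 and 360 TPM in contralateral muscle, a log2 difference of 1.04 ± 0.28 (adjusted p = 0.000609). At 7 DPI the means were 568 ± 176 and 270 ± 68.9 TPM and the difference was 1.05 ± 0.19 (adjusted p = 3.22e-07). At 14 and 28 DPI the differences were 0.73 and 0.76, under the fold threshold, with every injured muscle above every contralateral muscle. The call at 3 DPI was lost without the injured muscle of rat 010 (0.91) or the contralateral muscle of rat 017 (0.93). The call at 7 DPI was lost without the injured muscle of rat 019 (0.96) or 020 (0.98) or without the contralateral muscle that held 179 TPM (0.87), and within the range of rat numbers that held the contralateral muscles (0.77). The median of all tested genes was itself 0.54, 0.91, 0.50 and 0.38 higher in injured muscle on these days, and the muscle fibre sum was lower. Scaled by median-of-ratios size factors, which bring that median to between 0 and 0.1, Fabp4 differed by 0.46, -0.039, 0.07 and 0.28 and was called on no day, and Pparg at 7 DPI differed by 0.37 and was not called. Cebpa and Cfd at 3 DPI remained called under this scaling, at 2.72 and 2.12. Over the 376 values of the tested members in all comparisons, it added 9 calls and removed 17, and 1 more called value turned direction.

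Lpl did not pass the threshold in any comparison of the non-repaired, non-running arm. Its level was 81.9 to 101.5 TPM in injured muscle at 3 DPI, below the 112 and 120 TPM of the 2 contralateral muscles, and 95.2 to 132.2 TPM at 7 DPI against 44.3 to 106.7 TPM. In order of day the log2 differences of Lpl were -0.32, 0.67, 0.24 and 0.21. Scaling by size factors gave -0.90, -0.42, -0.42 and -0.26, so the direction from 7 DPI on depended on the scaling. Endothelial markers, which include the cells that use Fabp4 and hold Lpl on their surface, were higher for 3, 10, 6 and 2 of 12 genes on these days, beside 38.2, 47.4, 21.1 and 13.3% of all tested genes called in either direction, and their summed level was 313 to 461 TPM in injured muscle at 3 DPI against 205 to 216 TPM in contralateral muscle. Their part in the Fabp4 and Lpl values was not tested. Of 4 tested genes that act on the Lpl protein, 2 were higher at 3 DPI, led by Apoc1, an apolipoprotein, at 4.14, and 3 at 7 DPI. At 14 DPI 0 were, with 3 of the 4 at an unadjusted p under 0.05 by limma. At 28 DPI 1 was, Angptl4, an inhibitor of the lipase, at 1.74. The same shares of all tested genes stand beside these counts.

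Adipoq, Plin1 and Cidec, which mark mature adipocytes more narrowly, gave another picture. At 3 DPI Adipoq was 3.85, 2.17 and 0.80 TPM in the injured muscles and 26.6 and 1.06 TPM in the contralateral muscles of rats 010 and 017. The groups overlapped and the difference of -1.32 ± 0.81 was not called. It rested on which contralateral muscle was present: without rat 017 it was -3.19 and called, and without rat 010 it was 0.55 and not called. Plin1 showed the same split, at 0.94, 0.22 and 0.02 TPM in injured muscle and 5.0 and 0.39 TPM in contralateral muscle, and so did Cidec, at 1.01, 0.56 and 0.19 against 2.99 and 0.23 TPM. At 7 and 14 DPI the groups overlapped for all 3 genes and the log2 differences lay between 0.12 and 0.42, none of them called.

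At 28 DPI the same genes stood apart in injured muscle. Adipoq was 17.02, 6.22, 8.03 and 15.2 TPM in the injured muscles of rats 073, 074, 081 and 082. It was 2.25 and 4.45 TPM in contralateral muscle and 0.79 to 2.26 TPM in controls, so that no injured muscle overlapped with either group. Against control muscle Adipoq rose by 2.30 ± 0.63 on the log2 scale (adjusted p = 0.000905), and against the 2 contralateral muscles the difference of 1.48 ± 0.77 was not called (adjusted p = 0.101).

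Plin1 was 6.08, 1.77, 1.47 and 3.75 TPM in those 4 muscles and 0.62 and 0.75 TPM in contralateral muscle, a called difference of 1.21 ± 0.50 (adjusted p = 0.0394), and it exceeded control muscle by 1.61 ± 0.41 (adjusted p = 0.0004). The call against contralateral muscle was lost without the injured muscle of rat 073 or 082 or without either contralateral muscle, at 0.92, 1.11, 1.15 and 1.27, and with size factors, at 1.02. Cidec was 4.07, 0.74, 1.23 and 2.62 TPM against 0.65 and 0.59 TPM, a difference of 0.84 under the fold threshold, and it rose by 1.27 ± 0.28 against control muscle (adjusted p = 3.96e-05). The rises of Adipoq, Plin1 and Cidec against control muscle were also called with size factors, at 1.91, 1.49 and 1.17.

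Lep stayed below 1 TPM in all muscles but the contralateral muscle of rat 010. Injured muscle held 0.06 to 0.09 TPM at 3 DPI, 0.11 to 0.30 at 7 DPI, 0.08 to 0.24 at 14 DPI and 0.22 to 0.60 at 28 DPI, and controls held 0.06 to 0.16 TPM. The 4 injured muscles at 28 DPI were above all controls and above the 2 contralateral muscles at 0.11 and 0.07 TPM. The contralateral muscle of rat 010 held 1.22 TPM.

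Counted together, 3 of the 8 tested members (Cebpa, Cfd and Fabp4) were called at 3 DPI against contralateral muscle, near the 38.2% of all tested genes called in either direction. At 7 DPI 4 were, with Pparg added, against 47.4% of all genes, at 14 DPI 2 (Cebpa and Cfd) against 21.1%, and at 28 DPI 2 (Cfd and Plin1) against 13.3%. All were higher in injured muscle. The medians of the 8 log2 differences were 0.04, 0.86, 0.53 and 0.91, beside 0.54, 0.91, 0.50 and 0.38 for all tested genes. Against control muscle the counts were 3, 4, 3 and 6 of 8, beside 52.6, 48.1, 25.5 and 21.3% of all tested genes. The calls of Fabp4 at 7, 14 and 28 DPI were lost without the right muscle of control rat 038, at 0.95, 0.67 and 0.82, and that of Pparg at 7 DPI (1.00) without any of 6 muscles, at 0.91 to 0.99. The 6 at 28 DPI were Adipoq, Cebpa, Cfd, Cidec, Fabp4 and Plin1. With size factors 6 of these calls against control muscle were lost, those of Fabp4 on all 4 days (0.77, 0.28, 0.40 and 0.56), Pparg at 7 DPI (0.27) and Cebpa at 28 DPI (0.99).

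**Figure D3:**
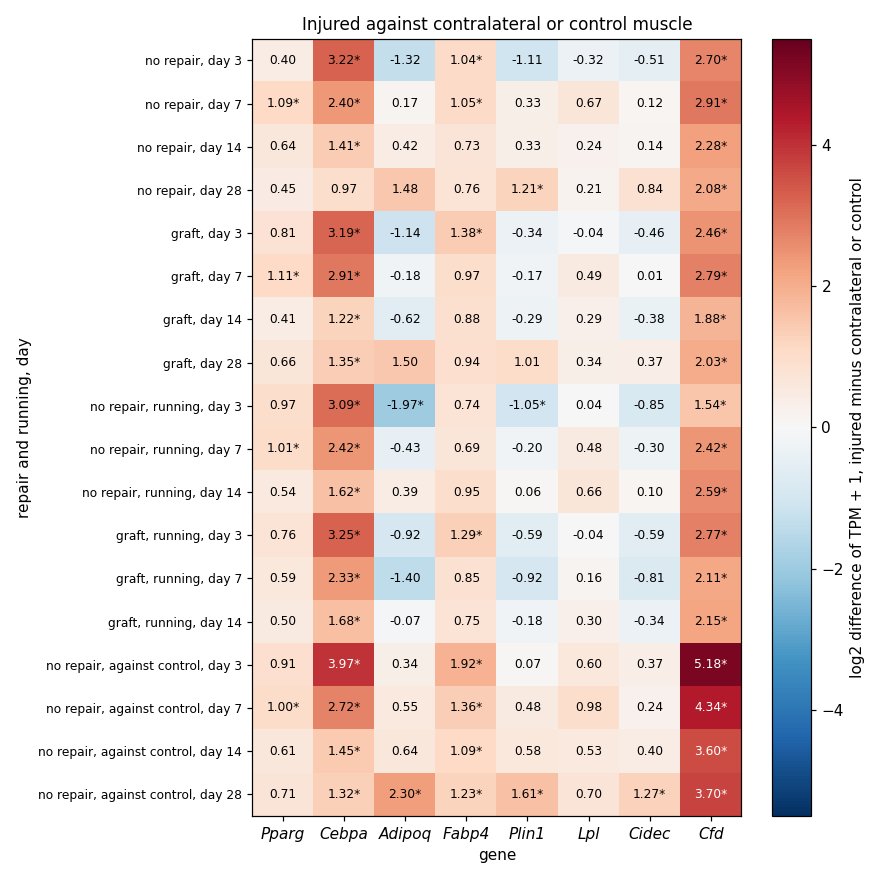
Difference of log2(TPM + 1) between injured and contralateral muscle for each repair and running arm and day, and between injured and control muscle, for the 8 tested genes. Asterisks mark called differences. Cfd was called against contralateral muscle in every arm and day and Cebpa in all but the non-repaired arm at 28 DPI, and Adipoq was below contralateral muscle at 3 DPI in all 4 arms, from -0.92 to -1.97, and from -0.68 to -1.32 within a range of rat numbers, where none was called.

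The size of the injury difference was compared between days directly. Between 3 and 28 DPI the injured against contralateral difference shifted by -2.25 ± 0.42 for Cebpa (adjusted p = 1e-05), 2.80 ± 1.12 for Adipoq (adjusted p = 0.0411), 2.32 ± 0.73 for Plin1 (adjusted p = 0.00887) and 1.36 ± 0.49 for Cidec (adjusted p = 0.0235). These were 4 of 8 members, with 20.1% of all tested genes called. The shifts of Adipoq, Plin1 and Cidec turned on the contralateral muscle of rat 010 and fell to 0.93, 1.26 and 0.51, none called, without it. The Adipoq shift was also lost without any of 6 other muscles, at 2.42 to 3.17, and the Cidec shift without any of 4, at 1.09 to 1.38. Within injured muscle alone, where that muscle plays no part, Adipoq rose by 1.96 ± 0.68 (adjusted p = 0.00844) and Plin1 by 1.54 ± 0.44 (adjusted p = 0.00157) from 3 to 28 DPI, while Cebpa fell by 2.64. Without the injured muscle of rat 018 at 3 DPI the Adipoq value was 1.58 and was not called. From 3 to 7, 7 to 14, 14 to 28 and 3 to 28 DPI, 1, 1, 0 and 4 of 8 members were called, beside 7.34, 6.82, 0.459 and 28.8% of all tested genes. For the step from 14 to 28 DPI the values of Adipoq, Plin1 and Cidec were 1.66, 1.03 and 0.87.

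No member was called between graft and no repair. In injured muscle of non-running rats, 0 of 8 were called at each of 3, 7, 14 and 28 DPI by limma, with log2 differences from -0.83 to 0.60, and 4 of the 32 values had an unadjusted p under 0.05. Of all tested genes 0.00883, 0.0883, 0.0265 and 0% were called on these days. The largest difference was that of Adipoq at 14 DPI, at 1.12 ± 0.404 TPM with the graft and 3.61 ± 3.25 without it (n = 4 each), -0.83 with a 95% interval of -2.08 to 0.42 (adjusted p = 0.73). Cebpa at 7 DPI was under the adjusted p limit but not the fold threshold, at 19.3 ± 4.56 TPM with the graft and 12.96 ± 5.25 without it (n = 8 each), a log2 difference of 0.60 with a 95% interval of 0.27 to 0.92 (adjusted p = 0.0163). Adipoq at 28 DPI was 8.13 ± 2.09 TPM with the graft and 11.6 ± 5.29 without (n = 4 each), a difference of -0.39 with a 95% interval of -1.65 to 0.86.

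In the graft arm itself, injured against contralateral muscle was led by Cebpa and Cfd again. Cebpa and Cfd were called higher on all 4 days, at 3.19, 2.91, 1.22 and 1.35 for Cebpa and 2.46, 2.79, 1.88 and 2.03 for Cfd. Fabp4 was called at 3 DPI, at 1.38, and Pparg at 7 DPI, at 1.11. The counts of 3, 3, 2 and 2 members stood beside 44, 46.2, 26.1 and 19.1% of all tested genes. Adipoq differed by -1.14, -0.18, -0.62 and 1.5015 and Plin1 by -0.34, -0.17, -0.29 and 1.01, none of them called. The difference between the arms in these differences was tested as well: 0 of 8 members were called on any day, from -1.04 to 0.77, with no unadjusted p under 0.05 and with 0, 0, 0 and 0% of all tested genes called.

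Running made no called difference to a member. Against non-running rats, injured muscle gave 0 of 8 calls on each day in both repair arms, with log2 differences from -0.46 to 0.55 and 2 of 64 values at an unadjusted p under 0.05. The shares of all tested genes called were 0.0441, 0, 0.0177 and 0.0177% without repair and 0, 0, 0 and 0% with the graft. Between graft and no repair in running rats 0 of 8 were called on each day, from -0.67 to 0.40, with 0 of 32 values at an unadjusted p under 0.05, beside 0, 0, 0.0177 and 0.0177% of all tested genes. At 28 DPI the 2 running, non-repaired muscles held 15.7 ± 1.30 TPM of Adipoq and the 2 running, grafted muscles 10.3 ± 5.92. These do not include the 8 libraries of running rats at 28 DPI in no group, which held 1.61 to 5.20 TPM of Adipoq.

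In running rats, injured muscle was compared with contralateral muscle to 14 DPI. Without repair, 4, 3 and 2 members were called at 3, 7 and 14 DPI, beside 40.1, 43.1 and 26.3% of all tested genes. At 3 DPI these were Cebpa and Cfd, higher by 3.09 and 1.54, and Adipoq and Plin1, lower by 1.97 and 1.05. The Plin1 call was lost when any of 5 injured muscles was left out, at -0.97 to -0.99. The contralateral muscles came from the range of lowest rat numbers and the injured muscles from more than 1 range. Within that range Adipoq differed by -0.99 (adjusted p = 0.20) and Plin1 by -0.54 (adjusted p = 0.298), and with the range as a covariate by -1.26 (adjusted p = 0.0892) and -0.68 (adjusted p = 0.179), so neither call was kept in either fit. Cebpa and Cfd remained called within the range, at 3.23 and 1.79. Pparg joined Cebpa and Cfd at 7 DPI, at 1.01, and at 0.76 without the injured muscle of rat 031, which was not called. With the graft, 3, 2 and 2 members were called, Cebpa and Cfd each day and Fabp4 at 3 DPI, beside 44.9, 44.3 and 24.2%.

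**Figure D4:**
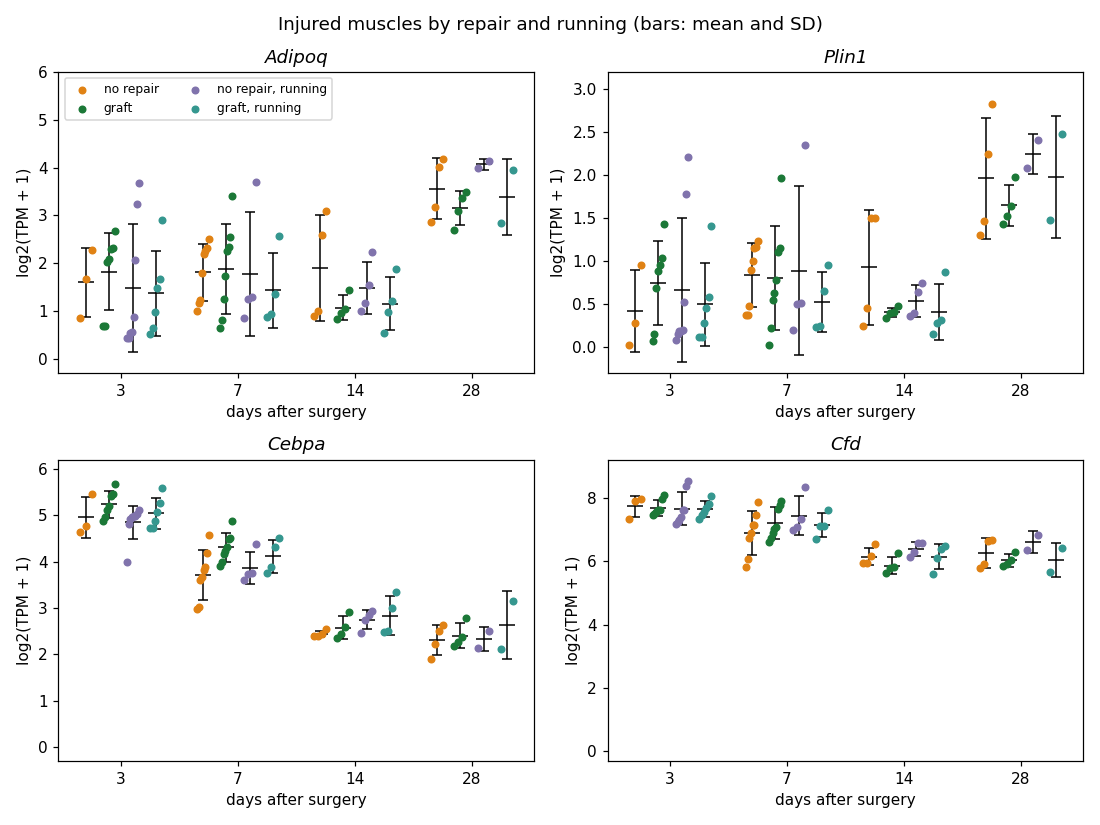
log2(TPM + 1) of Adipoq, Plin1, Cebpa and Cfd in all 76 injured muscles by day and arm. Points are muscles, and bars give the mean and SD of each arm. In all 12 muscles at 28 DPI Adipoq lay between 5.46 and 17.02 TPM, above the highest control muscle at 2.26 TPM (8 libraries of that day without a group, not plotted, lay from 1.61 to 5.20 TPM), and Cebpa and Cfd were highest at 3 and 7 DPI in every arm.

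Since no member was called between arms, the day courses were also taken as the mean over arms in the same model, a choice made after seeing the data. At 28 DPI all 12 injured muscles held more Adipoq (5.46 to 17.02 TPM), Plin1 (1.47 to 6.08 TPM), Cidec (0.74 to 4.07 TPM) and Lep (0.19 to 0.77 TPM) than any of the 4 control muscles. The 12 do not include the 8 libraries of running rats at 28 DPI that the labels put in no group, all of which held less Adipoq, from 1.61 to 5.20 TPM. The 12 muscles also held more of each than any of the 4 contralateral muscles at 28 DPI, whose ranges were 1.63 to 4.45, 0.50 to 0.75, 0.52 to 0.65 and 0.05 to 0.11 TPM. Pparg, Cebpa, Fabp4 and Cfd were also above all controls and all 4 contralateral muscles in the 12, and Lpl above all controls in 11. The share of all genes that separated in this way was not counted. At 14 DPI the median of 16 injured muscles was 1.17 TPM for Adipoq, 0.325 for Plin1 and 0.195 for Cidec. From 14 to 28 DPI, Adipoq rose by 2.14 ± 0.35 (adjusted p = 5.24e-07), Plin1 by 1.39 ± 0.23 (adjusted p = 6.35e-07) and Cidec by 1.06 ± 0.15 (adjusted p = 3.11e-08). These were 3 of 8 members, beside 1.98% of all tested genes. The rats of 28 DPI carry the numbers 73 to 88 and those of 14 DPI a separate block of higher numbers, so the day and the numbered set cannot be told apart, and contralateral Adipoq had medians of 1.33 and 2.52 TPM on these days.

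Over arms, the injured against contralateral difference at 28 DPI was called for Adipoq, at 1.49 ± 0.55 (8 and 4 muscles, adjusted p = 0.0122), for Plin1, at 1.11 ± 0.36, for Cebpa, at 1.16, and for Cfd, at 2.05, beside 16.2% of all tested genes. In the 4 rats with both muscles at 28 DPI, the injured muscle held more of each of the 9 genes. The median ratio was 3.34 for Adipoq, 3.51 for Plin1, 1.49 for Cidec and 4.10 for Lep. How many of all genes were higher in all 4 pairs was not counted. In the group comparisons of non-running rats on that day, the median tested gene was 0.38 higher in injured muscle without repair and 0.49 higher with the graft. At 3 DPI Adipoq was lower in injured muscle by 1.34 ± 0.37 (24 and 8 muscles, adjusted p = 0.000652), and Cebpa, Cfd and Fabp4 were higher, beside 41.6%. All contralateral muscles but only 16 of the injured ones came from the range of lowest rat numbers. Within that range the Adipoq difference was -0.94 ± 0.36 (16 and 8 muscles, adjusted p = 0.0117), under the fold threshold, and Cebpa, Cfd and Fabp4 were called higher, beside 42.8%. At 7 and 14 DPI Cebpa and Cfd were called, beside 44.9 and 24.4%. Against control muscle 4, 5, 3 and 6 members were called on the 4 days, beside 56.4, 51.9, 30.2 and 20.3%, with Lpl reaching 1.07 ± 0.14 at 7 DPI. Between days 1, 2 and 4 members were called from 3 to 7, 7 to 14 and 3 to 28 DPI, beside 7.12, 9.32 and 34.4%. Taking the rats from number 91 on at 3 DPI and those numbered 73 to 88 at 28 DPI (8 muscles each day, 3 arms), Adipoq rose by 2.78 ± 0.43 (adjusted p = 1.62e-08), Plin1 by 1.75 ± 0.29 and Cidec by 1.05 ± 0.20, and Cebpa and Cfd were called lower, at -2.41 and -1.24, beside 34.5% of all tested genes. These blocks of numbers do not overlap, so here too the day and the block cannot be told apart.

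At 3 DPI the contralateral muscle was the side with high values. Adipoq had a median of 7.06 TPM over 8 contralateral muscles (1.06 to 26.6 TPM), of which 6 exceeded the highest control muscle, and a median of 1.99 TPM over 24 injured muscles (0.35 to 11.8 TPM). Within rats the injured muscle held more Adipoq in 2 of 8 pairs at 3 DPI, 2 of 14 at 7 DPI, 3 of 8 at 14 DPI and 4 of 4 at 28 DPI. Cfd was likewise above the highest control in all 34 contralateral muscles. In the non-repaired arm, Cfd was called higher in contralateral than in control muscle at 3 DPI, at 2.49 ± 0.50 (adjusted p = 6.56e-05), and at 7 DPI, at 1.43 ± 0.41 (adjusted p = 0.0166), and Plin1 at 3 DPI, at 1.18 ± 0.50 (adjusted p = 0.0417). The counts of 2, 1, 0 and 0 of 8 at 3, 7, 14 and 28 DPI stood beside 6.43, 0.803, 0.715 and 0.185% of all tested genes, and on these days 8, 1, 1 and 2 of the 8 values had an unadjusted p under 0.05. At 3 DPI the 8 log2 differences lay between 0.51 and 2.49.

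Rat 010 carried much of this at 3 DPI: without its contralateral muscle Plin1 differed from control by 0.12 and Cfd by 1.20, neither called. The Plin1 call was also lost without the left or right muscle of control rat 037 or the right muscle of rat 038, at 1.12 to 1.20. Without the contralateral muscle with the most Cfd at 7 DPI, at 22.3 TPM, the Cfd value was 1.25 and not called. The 8 contralateral muscles of 3 DPI all came from the range of lowest rat numbers. Within injured muscle at 3 DPI, rats numbered 1 to 30 had a median Adipoq of 3.22 TPM (n = 16) and rats from number 91 on of 0.465 TPM (n = 8), and at 7 DPI rats 3 to 32 had 2.94 TPM (n = 16) and rats of higher numbers 1.37 TPM (n = 8). The numbered range of the rat therefore moved with Adipoq at these times. The muscles of non-repaired, non-running rats at 3 DPI all came from 1 range, so their difference of -1.32 lies within it. Its part in the contralateral values was not tested.

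The 9 genes did not form 1 group across muscles. Over the 76 injured muscles, 1 per rat, each value was taken as its deviation from the mean of its group, so that mean differences between days, repair and running arms were removed, and the relation of Adipoq to the other 8 genes was tested by 100000 permutations within groups (two-sided). Plin1 followed Adipoq with Pearson's r = 0.95 and Spearman's rho = 0.94, and Cidec with r = 0.87 and rho = 0.87. For both, each permutation p was 1e-05, the smallest these permutations can give, with adjusted p = 2e-05 for r and 2.67e-05 for rho. Cfd had r = 0.69 and rho = 0.67 with the same permutation p of 1e-05 for each. Without the 2 muscles farthest from the median of Adipoq, r was 0.93, 0.84 and 0.63. Some groups of 3 and 7 DPI held rats of more than 1 range of numbers, which moved with Adipoq. With deviations taken from the mean of each group and range instead, r was 0.94 for Plin1, 0.87 for Cidec and 0.67 for Cfd, each with the same permutation p of 1e-05. The points share the scaling of each library to a fixed total.

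Further down, Pparg had r = 0.55 (permutation p = 1e-05, adjusted 2e-05) and rho = 0.49 (permutation p = 0.0001, adjusted 0.0002). Lep had r = 0.44 (permutation p = 8e-05, adjusted 0.000128) and rho = 0.41 (permutation p = 0.00059, adjusted 0.000944), Fabp4 r = 0.40 (permutation p = 0.002, adjusted 0.00267) and rho = 0.37 (permutation p = 0.00405, adjusted 0.0054), and Cebpa r = 0.29 (permutation p = 0.0175, adjusted 0.02) and rho = 0.28 (permutation p = 0.0213, adjusted 0.0243). Lpl had r = -0.02 (permutation p = 0.848, adjusted 0.848) and rho = -0.02 (permutation p = 0.896, adjusted 0.896). Without the 2 farthest muscles these values of r were 0.47, 0.37, 0.34, 0.27 and -0.07. With the range of rat numbers removed as well, Pparg and Lep passed, at r = 0.58 and 0.56, and by r the relations of Fabp4 (0.28, permutation p = 0.0514, adjusted 0.0685) and Cebpa (0.13, permutation p = 0.33, adjusted 0.377) did not, while Fabp4 passed by rho (0.27, permutation p = 0.0356, adjusted 0.0475). In the 34 contralateral muscles, taken from group means alone and as a description, r was 0.96 for Plin1, 0.95 for Cidec, 0.97 for Cfd, 0.89 for Lep, 0.86 for Cebpa, 0.62 for Pparg, 0.36 for Fabp4 and 0.28 for Lpl. In the same order rho was 0.91, 0.89, 0.94, 0.82, 0.68, 0.52, 0.33 and 0.28. In the 19 injured muscles of the non-repaired, non-running arm alone, r was 0.78 for Cfd and 0.64 for Cebpa, against 0.69 and 0.29 over all arms. The difference between injured and contralateral muscle was not tested.

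**Figure D5:**
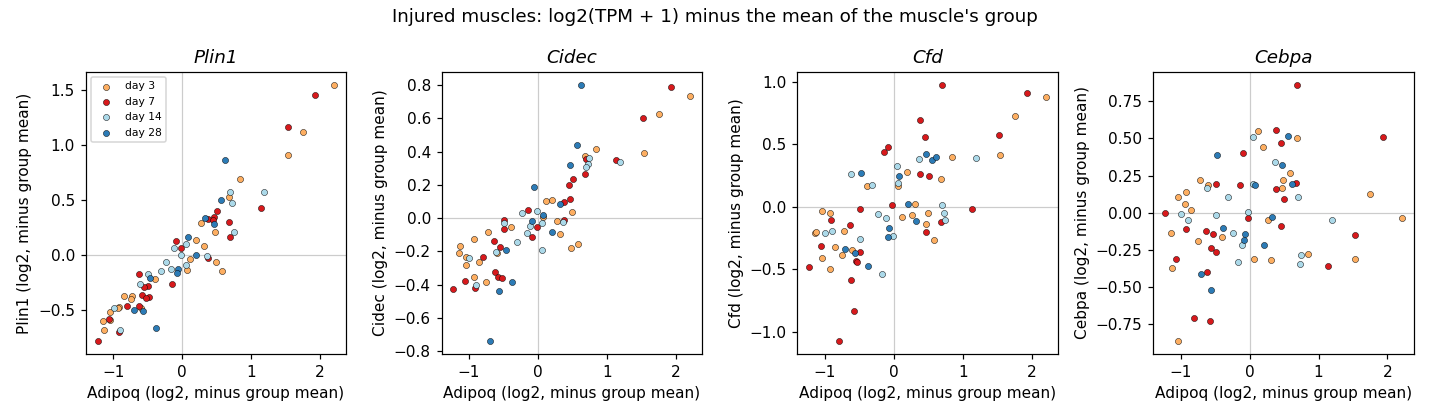
Deviation of Plin1, Cidec, Cfd and Cebpa from the group mean against that of Adipoq, both in log2(TPM + 1), in 76 injured muscles coloured by day. Plin1 and Cidec lay close to a line (r = 0.95 and 0.87), Cfd spread further (r = 0.69) and Cebpa scattered (r = 0.29, 0.13 with the range of rat numbers removed, and 0.64 in the 19 non-repaired, non-running muscles alone).

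Over all 114 muscles and all tested genes, the 10 genes nearest to Adipoq by r of these deviations were Plin1 (0.95), Retn (0.93), Cidec (0.89), Cdo1 (0.88), S100b (0.82), Cfd (0.79), Rbp4 (0.79), Pck1 (0.78), Aldh3a1 (0.77) and Prelp (0.76). For Plin1 they were Retn, Adipoq and Cidec (0.95, 0.95 and 0.92), and for Cidec Plin1, Retn and Adipoq (0.92, 0.90 and 0.89). The nearest genes of the other members held no member: Myo1f, Csk and Syk for Cebpa (0.88, 0.87 and 0.86), Nrros, Il3ra and Dpep2 for Pparg (0.81, 0.81 and 0.81), Cdo1, C2 and Fcna for Cfd (0.88, 0.88 and 0.87), Trim65, Pdcd10 and Dazap1 for Fabp4 (0.82, 0.81 and 0.80), and Slc19a2, Acot2 and Stk11 for Lpl (0.65, 0.63 and 0.62). Retn, which encodes resistin, an adipokine of rodent fat, stood at 0.748 ± 0.217 TPM in control muscle, 1.04 ± 0.127 in contralateral and 5.78 ± 4.43 in injured muscle at 28 DPI.

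Other genes of the adipocyte programme were counted from fixed lists, in injured against contralateral muscle of the non-repaired arm. Of 11 tested further adipocyte markers, 3, 6, 3 and 4 were higher at 3, 7, 14 and 28 DPI and 2, 0, 0 and 0 lower, with medians of 0.38, 1.07, 0.60 and 0.62. Of all tested genes 38.2, 47.4, 21.1 and 13.3% were called in either direction on these days, and their medians were 0.54, 0.91, 0.50 and 0.38; the lists that follow are read beside the same shares. The extremes were Pde3b, a phosphodiesterase of insulin signalling, at 1.67 and Car3, carbonic anhydrase of fat and slow muscle, at -1.79 at 3 DPI, and Sncg, synuclein gamma, at 2.40 at 28 DPI. Of 15 regulators that promote adipogenesis, 2, 6, 2 and 2 were higher and 4, 1, 0 and 0 lower. Klf5 was the highest on every day, at 2.07, 2.26, 2.10 and 1.997, and Klf15, also a regulator of metabolism in fibres, was the lowest at 3 DPI, at -1.94. Of 8 tested inhibitors of adipogenesis 2, 4, 2 and 1 were higher, and Dlk1, a surface protein of preadipocytes and of regenerating muscle, reached 5.53, 5.66 and 3.14 at 7, 14 and 28 DPI.

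Lipid droplet and lipolysis genes went both ways, with 4, 4, 3 and 2 of 14 higher and 3, 2, 0 and 0 lower, beside 38.2, 47.4, 21.1 and 13.3% of all tested genes in either direction. Plin2, the droplet coat protein of most cell types, was the highest at 3 DPI, at 3.90, and G0s2, an inhibitor of lipolysis, the lowest at 3 and 7 DPI, at -1.87 and -2.85. Cidea, a droplet protein of brown fat, was the highest from 7 DPI on, at 3.14, 2.37 and 2.71. Of the 4 tested genes of brown adipocytes, which include Cidea, 1, 2, 2 and 1 were higher and 2, 0, 0 and 0 lower. Of 16 genes of triglyceride and fatty acid synthesis, 3, 5, 4 and 2 were higher and 5, 3, 0 and 0 lower. Scd, a fatty acid desaturase, was 5.94, 6.14 and 5.52 higher at 7, 14 and 28 DPI, and Gpd1, which supplies glycerol phosphate, was lower by 2.80 at 3 DPI. None of the 3 tested receptors of adiponectin and leptin was called on any day.

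Markers of fibroadipogenic progenitors were higher for 5, 10, 8 and 8 of 12 genes at 3, 7, 14 and 28 DPI, and 1 was lower at 3 DPI, with medians of 0.86, 2.11, 1.64 and 1.42. Lum, a proteoglycan of these cells, was the highest on each day, at 4.70, 6.29, 4.40 and 3.44. Muscle fibre markers were lower for 12, 8, 0 and 0 of 12, with Myh7 at -3.91 at 3 DPI, and their sum was 195000 to 212180 TPM in injured muscle at 28 DPI against 229530 to 237810 TPM in contralateral muscle. Over all arms, the median of Adipoq was 1.93 TPM in the 24 injured muscles at 7 DPI and 9.755 TPM in the 12 at 28 DPI. The day and the numbered block of rats cannot be told apart here. The marker counts are of the non-repaired, non-running arm alone, and an order between these markers and Adipoq was not tested.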

How the data were processed

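Libraries of rat TA muscle were made from total RNA. The authors quantified reads with Kallisto against rat build 6.0 and deposited gene TPM values, which were used as deposited; DESeq is also named in the submitters' processing notes. No counts were used. The depth of each library is not given in the sources used here, and precision is judged from the spread between muscles. The table has 16182 symbols in alphabetical order, of which the last (Tubb4a) is incomplete, so 16181 were used. Symbols that sort after it are not analysed here, and shares of all tested genes and nearest genes do not cover them. TPM of the kept libraries of a muscle were averaged (2 muscles had more than 1). Kept libraries had 7866 to 10948 symbols above 1 TPM and those left out 901 to 5712.

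The model was fitted to log2(TPM + 1) by limma 3.58.1 (R 4.3.3), with 1 mean per group, 83 residual degrees of freedom and an intensity trend, over 11328 genes with a group mean above 1 TPM. Differences are on that scale, which understates changes of low genes. Called genes had a Benjamini-Hochberg adjusted p under 0.05 and a log2 difference beyond 1. Contralateral and injured muscles pair by rat: over 34 rats the mean correlation of their deviations was 0.0944, against -0.00871 between other rats, and a random block for rat used statmod 1.5.0. Rats are separate animals.

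Named genes were the 9 members, the highest and lowest genes of fixed lists, and the 10 genes nearest to Adipoq and 3 nearest to each other member. The members and lists were chosen with earlier results of these data known. Alternatives were a pseudocount of 0.1, no filter, size factors, all mapped libraries, compared groups alone, pooled contralateral arms, control muscles averaged per rat, each library as a sample, the range of rat numbers, the rat block, leaving out rat 011, and each of 86 muscles left out in turn. The mean over arms and comparisons and correlations within ranges of rat numbers were added after seeing the data. Correlations used Python 3.11.15, numpy 2.4.6, pandas 2.3.3 and scipy 1.17.1, figures matplotlib 3.10.9, and promoter sequence came from RefSeq (GRCr8), whose coordinates are not those of the authors' build.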

Additional observations from a re-analysis of the deposited data

Results flagged for a closer look

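Among the sets of values of the 9 genes in groups of 4 to 10 muscles, 12 (8.33% of the sets checked) had a muscle far from the rest by Dixon's 95% limits, where chance flags about 1 in 20. A contralateral muscle of the graft arm at 7 DPI held 10.3 TPM of Adipoq, 3.34 of Plin1, 2.38 of Cebpa and 52.9 of Cfd, each the highest of its group. The injured muscle of rat 031 (non-repaired, running, 7 DPI) held 12.1 TPM of Adipoq and 4.08 of Plin1. Rat 025 (graft, running, 3 DPI) held 1.65 TPM of Plin1. Cebpa was 14.9 TPM in rat 098 (non-repaired, running, 3 DPI), the lowest of its group. Fabp4 was 367 TPM in rat 075 and Lep 0.77 TPM in rat 084 (both graft, 28 DPI). Lep was 0.24 TPM in a non-repaired muscle at 14 DPI and Lpl 95.2 TPM in rat 011 (non-repaired, 7 DPI).

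The injured against contralateral difference was called as changed between 3 and 28 DPI for 4 members, by limma's test of the difference itself. On the log2 scale the change was -2.25 for Cebpa, 2.80 for Adipoq, 2.32 for Plin1 and 1.36 for Cidec, beside 20.1% of all tested genes called. Without the contralateral muscle of rat 010 the changes of Adipoq, Plin1 and Cidec were not called.

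Among 9 libraries without a group, 8 of running rats at 28 DPI and 1 of rat 011, values above the highest control muscle occurred for each gene, reaching 9.79 TPM for Adipoq, 2.47 for Plin1, 1.53 for Cidec, 0.21 for Lep, 75.2 for Cfd, 4.20 for Cebpa, 2.95 for Pparg, 558 for Fabp4 and 120 for Lpl.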

How the results depend on the processing

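Counts of called members that moved by over 1.5 times were as follows, and the cause was not tested. Contralateral against control, with 3 calls, had 5 with a pseudocount of 0.1 and with contralateral muscles of both repair arms pooled, and 1 with the compared groups alone and with control muscles averaged per rat. The change of the injury difference from 3 to 28 DPI, with 4 calls, had 2 with a pseudocount of 0.1 or all mapped libraries and 1 with the compared groups alone. Injured against control, with 16, had 10 with size factors. Injured day against day, with 6, had 10 as the mean over arms, which averages more muscles. Fabp4 turned direction in 2 cases: injured against contralateral at 7 DPI was -0.039 with size factors, and contralateral against control at 7 DPI was -1.99 with all mapped libraries.

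Leaving out each muscle in turn gave 1 to 6 calls for contralateral against control, 2 to 4 for the change from 3 to 28 DPI, 5 to 8 for day against day, 10 to 13, 10 to 11 and 15 to 17 for injured against contralateral in the non-repaired, graft and running comparisons, and 12 to 17 for injured against control. The counts of 0 between graft and no repair and between running and not stayed 0 in each of these. With the rat as a block, pairing the 2 muscles of a rat, the counts were 3, 4, 6, 11, 10, 16 and 16 in the order contralateral against control, change from 3 to 28 DPI, day against day, non-repaired, graft, running, and injured against control, and the block changed no call. Within 1 range of rat numbers, 10, 10 and 15 members were called in the non-repaired, graft and running comparisons. Of the 8 relations with Adipoq, 7 passed by Pearson's r in each of 3 alternatives, and by Spearman's rho 7 in 2 of them and 6 in the non-repaired, non-running muscles alone, where Fabp4 missed (adjusted p = 0.0861). With the range of rat numbers removed as well, 5 passed by r and 6 by rho. Fitted without the filter on low values, Lep exceeded control muscle at 28 DPI by 0.34 (adjusted p = 0.00363), under the fold threshold. The depth of single libraries was not used, so low values have no counting interval.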

Other observations

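The 8 libraries of running rats at 28 DPI whose title and injury label name opposite muscles form a pair for each of rats 077 to 080. Adipoq was 1.61, 2.26, 1.99 and 2.23 TPM in the libraries titled as injured and 5.20, 4.71, 2.70 and 5.05 TPM in those titled as contralateral. Cfd was 9.79, 9.2, 11.98 and 15.8 TPM in the first and 58.0, 50.2, 44.9 and 75.2 TPM in the second. All 4 rats held more of both genes in the library whose title says contralateral. The library of rat 011 that carries another day than the rat's other muscle held 9.79 TPM of Adipoq, 2.09 of Plin1 and 38.7 of Cfd.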
